A study of Rattus norvegicus with 6 samples.

Results

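The genes of mitochondrial protein import and of the CHCHD family were compared between the myocardium of sham rats and of rats after ischemia/reperfusion (I/R). They were chosen by symbol alone, as the genes named Tomm, Timm or Chchd followed by a number and optional letters or digits, which gave 29 of the 28293 genes in the table (8 Tomm, 13 Timm and 8 Chchd). Other genes of these families that the symbols do not reach were not analysed here. Myocardial tissue came from 6 male wild-type (WT) rats, 3 labelled sham and 3 labelled I/R. All had a thoracotomy under anesthesia by the protocol of the labels, and I/R rats had the left anterior descending artery of the heart tied for 30 min and then reperfused for 6 h. The titles write these times for the sham rats too, and neither the age of the rats nor the piece of heart that was taken is stated. Each value is the FPKM (fragments per kilobase, scaled to library size) that the authors deposited for 1 rat. In bulk tissue, fewer cells of a type and less RNA per cell cannot be told apart.

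Almost all mitochondrial proteins are encoded in the nucleus and enter the organelle through the TOM complex of the outer membrane, whose genes are named Tomm. Proteins with a presequence then pass the TIM23 complex of the inner membrane, carriers pass the TIM22 complex with the help of small TIM chaperones, and these genes are named Timm. CHCHD proteins carry pairs of cysteines, and many of them fold in the space between the membranes, where CHCHD4 forms their disulfide bonds. Heart muscle is among the tissues richest in mitochondria and depends on this import for its respiratory chain.

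Of the 27 genes with enough signal to test (mean of at least 0.5 FPKM), 24 were higher in I/R rats and 0 were lower, at an adjusted p under 0.05 in limma on log2(FPKM + 0.1). The share of 88.9% compares with 25.5% of the 10942 genes tested that were called higher, and 7.36% of all genes were called lower. No member was lower at an unadjusted p under 0.05 either, against 1204 of all genes. All 27 log2 fold changes were above 0 and above the median of all genes tested, which was 0.29. The median of the members was 1.31, with a range from 0.42 (Tomm34) to 3.30 (Chchd10). In 25 of the 27 genes every I/R rat lay above every sham rat, which was the case for 37.2% of all genes tested. The genes without a call were Tomm34, Tomm40l and Chchd5. These directions are on the scale of the deposited FPKM, and 26 of the 27 turned below 0 when the libraries were centred on cardiomyocyte markers, as described with the scalings. That centring lowers the change of every gene by the markers' own mean difference of 2.54, and 84.2% of all genes were then called lower. Chchd6 and Timm8a2 were below the filter. Chchd6, which encodes a subunit of the cristae-organizing MICOS complex, had 0.250, 0.121 and 0.0471 FPKM in sham rats and 0, 0.114 and 0.121 FPKM in I/R rats. Timm8a2 had at most 0.0220 FPKM in any sham rat and was listed at 0 in all I/R rats.

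The libraries differed in ways that touch these values. The 13 mRNAs encoded by mitochondrial DNA held 80.1% to 86.2% of the summed FPKM in sham rats and 61.8% to 71.5% in I/R rats. Relative depth was read from the steps of low values and set to 1 for sham replicate 1. It was 1.18 and 1.14 in the other sham rats and 0.873, 0.935 and 0.881 in I/R rats. Every I/R library was thus shallower than every sham library, which touches low genes most. The 7 cardiomyocyte markers (Myh6, Tnnt2, Tnni3, Actc1, Myl2, Myl3 and Mb) were all higher in I/R rats, none of them was at 0, and their summed FPKM ranged from 3642 to 11998 in sham rats and from 24836 to 35915 in I/R rats. Sham replicate 1 had the highest cardiomyocyte level of the sham rats, with a mean log2(FPKM + 0.1) of 10.4 against 8.87 and 8.57. It was also the highest sham rat for 21 of the 27 members, and I/R replicate 1 was the highest I/R rat for 24. The part of the cardiomyocyte content or of the mitochondrial mRNA share in the members' difference was not tested. Without replicate 1 of both groups, 22 members were called higher, against 2638 of the 10942 genes tested. The cardiomyocyte level still differed among the remaining rats, with 8.87 and 8.57 in sham rats and 11.7 and 11.6 in I/R rats. Chchd2, Chchd4, Timm17a, Timm23, Tomm20 and Tomm7 have copies by name among the rat genes of RefSeq, and how reads shared with such copies were counted is not stated, so their levels are uncertain.

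The promoters of the members are shown first, before the single genes. RefSeq (GRCr8) held a promoter of 250 bases before to 50 bases after the start for 26 of the 29 members, and Chchd2, Chchd7 and Tomm34 had none in the table. The 26 include Chchd6 and Timm8a2, which were below the filter, unlike the genes tested. Where a symbol had several promoters, the first listed was taken. The ETS letters CCGGAAG, on either strand, were in 10 of the 26 (38.5%), against 18.8% of the promoters of genes tested, 19.3% of those of genes called higher and 9.22% of all 27457 promoters. The 10 were Chchd3, Chchd5, Timm10, Timm10b, Timm23, Timm8a2, Timm8b, Tomm20, Tomm22 and Tomm70. They include Timm23 and Timm10, with the highest log2 fold changes of the Timm genes, and also Chchd5, which had no call and 5 matches. Chchd10, with the largest log2 fold change of all members, had no ETS match. Neither did Timm21, Timm17a, Timm50 or Tomm40, and a link between the letters and the changes was not tested. The following windows are the 100 bases before the start of members of each family, from 5′ to 3′ on the strand of the gene, with capitals for the ETS letters and for the ERR letters AAGGTCA. In Timm23 both overlap, and in Timm10 and Tomm22 a forward match overlaps a reverse one. Only matches that lie whole in the window are in capitals, and a further ETS match of Tomm22 begins 6 bases before the start and is cut by the end of its window.
Timm23 (chr16:7442620-7442719, minus strand): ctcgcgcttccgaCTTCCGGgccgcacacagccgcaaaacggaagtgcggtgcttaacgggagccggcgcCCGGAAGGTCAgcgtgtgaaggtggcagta
Timm10 (chr3:90315039-90315138, plus strand): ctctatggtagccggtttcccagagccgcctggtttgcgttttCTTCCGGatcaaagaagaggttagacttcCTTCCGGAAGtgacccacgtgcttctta
Tomm20 (chr19:71832421-71832520, minus strand): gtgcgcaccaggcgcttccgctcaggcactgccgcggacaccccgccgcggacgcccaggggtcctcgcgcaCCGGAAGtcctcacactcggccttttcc
Tomm22 (chr7:113107206-113107305, plus strand): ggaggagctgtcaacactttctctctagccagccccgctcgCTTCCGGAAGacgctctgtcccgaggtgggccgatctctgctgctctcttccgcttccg
Tomm70 (chr11:56886277-56886376, minus strand): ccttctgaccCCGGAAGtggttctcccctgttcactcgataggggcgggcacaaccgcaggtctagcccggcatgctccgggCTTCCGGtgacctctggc
Chchd5 (chr3:136815007-136815106, plus strand): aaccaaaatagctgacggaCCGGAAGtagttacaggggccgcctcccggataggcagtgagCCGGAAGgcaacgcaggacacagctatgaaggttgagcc

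The NRF1 core GCGCATGC was in only 2 of the 26 promoters (7.69%), those of Chchd4 and Tomm7, against 5.39% of genes tested and 2.66% of all promoters. In both, the forward and the reverse match overlap in a single stretch. These 60-base windows lie 60 to 1 bases (Tomm7) and 220 to 161 bases (Chchd4) before the start, with that stretch in capitals.
Tomm7 (chr4:12197443-12197502, plus strand): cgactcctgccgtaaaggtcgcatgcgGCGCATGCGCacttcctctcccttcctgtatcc
Chchd4 (chr4:125534723-125534782, minus strand): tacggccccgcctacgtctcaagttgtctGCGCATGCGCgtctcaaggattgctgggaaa

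Of the other letters searched on both strands, the E-box CACGTG was in 6 member promoters (23.1%, against 9.79% of genes tested). The ERR letters were in 3, those of Timm23, Timm44 and Timm8b (11.5%, against 2.75%). The CCAAT box was in 11 (42.3%, against 37.7%), the YY1 letters AAGATGGC in 2 (7.69%, against 5.85%) and the stress-response element TGATGNAA in 2 (7.69%, against 1.87%). In all promoters the shares were 6.65% for the E-box, 4.37% for ERR, 37.7% for CCAAT, 3.44% for YY1 and 3.82% for the stress-response element. These matches describe the letters of the windows, and no factor's binding was measured here.

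**Figure D1:**
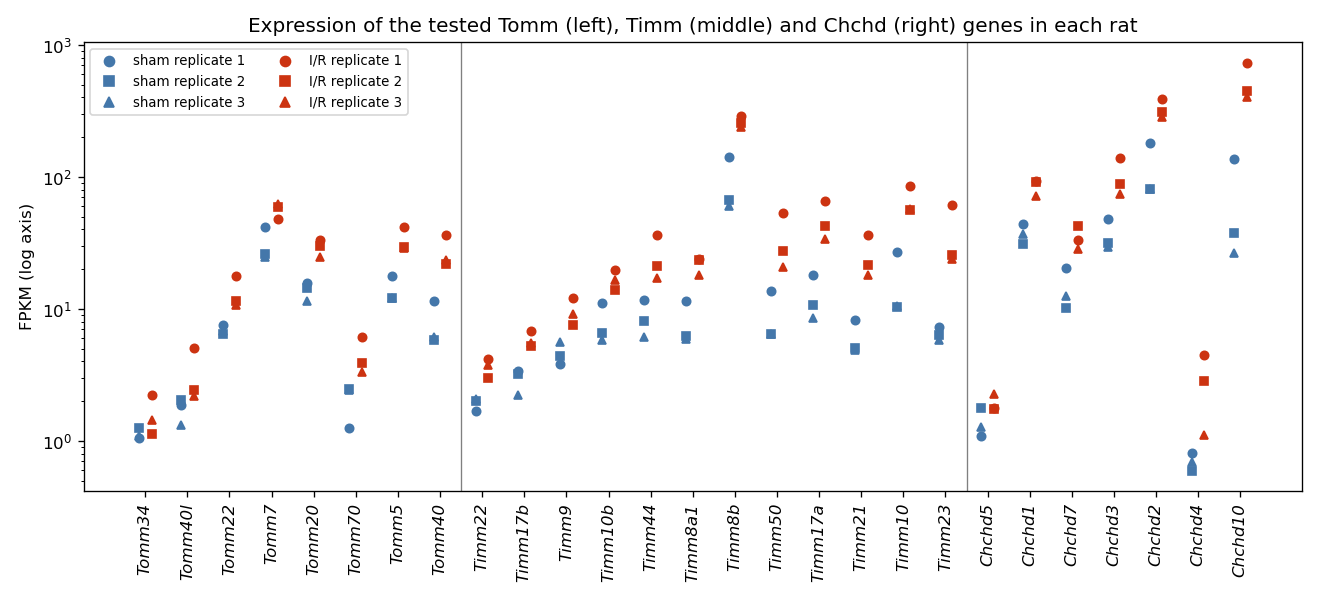
FPKM on a log axis of the 27 tested genes in each rat (sham and I/R in 2 colors, a marker shape for each replicate), with Tomm, Timm and Chchd genes from left to right and ordered within each family by log2 fold change. The I/R rats lie above the sham rats without overlap in 25 of the 27 genes on this scale, against 37.2% of all genes tested. Chchd10 has the highest I/R values. Centred on cardiomyocyte markers, 26 of the 27 differences turn below 0, and 84.2% of all genes are called lower.

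Of the 8 Tomm genes, 6 were higher in I/R rats, against 25.5% of all genes tested. Their median log2 fold change was 0.99, which became -1.56 when centred on cardiomyocyte markers. The 8 include Tomm34, which encodes a cytosolic protein. The 6 genes of the TOM complex, without Tomm34 and Tomm40l, were all higher, with a median of 1.09. The 3 import receptors moved by similar amounts. Tomm20, which recognizes presequences, had 15.7, 14.4 and 11.4 FPKM in sham rats and 33.3, 29.7 and 24.8 FPKM in I/R rats. The means were 13.9 ± 2.21 and 29.3 ± 4.25 FPKM (SD, n = 3 each), a log2 fold change of 1.08 (SE 0.23, limma adjusted p = 0.0089). Every I/R rat was above every sham rat, by a ratio of means of 2.11.

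Tomm22, the central receptor that holds the complex together, had 7.60, 6.51 and 6.81 FPKM in sham rats and 17.6, 11.6 and 10.7 FPKM in I/R rats. Its log2 fold change was 0.89 (SE 0.25, limma adjusted p = 0.022). Tomm70, the receptor for carrier proteins delivered by cytosolic chaperones, had 1.25, 2.46 and 2.43 FPKM in sham rats and 6.16, 3.91 and 3.32 FPKM in I/R rats. The groups did not overlap for either gene, and sham replicate 1, the highest sham rat for most members, was the lowest for Tomm70. The log2 fold change of Tomm70 was 1.10 (SE 0.32, limma adjusted p = 0.028). Both calls were lost when certain rats were left out, in smaller fits that also called fewer of all genes higher. Those numbered 2790 with all rats, 1919 without sham replicate 2, 1528 without sham replicate 3 and 2063 without I/R replicate 1. For Tomm70 the limma adjusted p was 0.077 without sham replicate 1 (log2 fold change 0.79), 0.051 without sham replicate 2, 0.088 without I/R replicate 1 (0.85) and 0.11 without replicate 1 of both groups (0.54). For Tomm22 it was 0.073 without sham replicate 2, 0.071 without sham replicate 3 and 0.0503 without I/R replicate 1 (0.67).

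Tomm40 encodes the channel of the complex and showed the largest change of the family. Its FPKM was 11.5, 5.82 and 6.13 in sham rats and 36.1, 22.0 and 23.6 in I/R rats. Every I/R rat lay well above the highest sham rat, and the log2 fold change was 1.82 (SE 0.32, limma adjusted p = 0.0043). Tomm40l, its paralog, had 1.87, 2.06 and 1.32 FPKM in sham rats and 5.03, 2.44 and 2.17 FPKM in I/R rats. The groups did not overlap, but I/R replicate 1 stood apart from the other I/R rats, and the log2 fold change of 0.77 (SE 0.33) missed the threshold (limma adjusted p = 0.10).

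Of the small subunits, Tomm5 had 17.7, 12.1 and 12.0 FPKM in sham rats and 42.0, 29.7 and 29.0 FPKM in I/R rats, a log2 fold change of 1.27 (SE 0.26, limma adjusted p = 0.0073). Tomm7, which helps to hold the kinase PINK1 at the outer membrane, had 41.5, 26.2 and 24.8 FPKM in sham rats and 47.7, 58.7 and 62.8 FPKM in I/R rats. It was the most abundant Tomm mRNA in both groups by FPKM, and I/R replicate 1 was its lowest I/R rat, unlike for most members. Its log2 fold change was 0.90 (SE 0.27, limma adjusted p = 0.028), and it turned to -0.04 under quantile normalization. The call of Tomm7 was also lost when centred on the median (0.65, limma adjusted p = 0.13) and without sham replicate 2 (adjusted p = 0.10), sham replicate 3 (0.11), I/R replicate 2 (0.082) or I/R replicate 3 (0.087). Tomm34 encodes a cytosolic co-chaperone and not a subunit of the channel. It had 1.05, 1.24 and 1.08 FPKM in sham rats and 2.21, 1.14 and 1.45 FPKM in I/R rats, and the groups overlapped (log2 fold change 0.42, SE 0.28, limma adjusted p = 0.27).

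All 12 tested Timm genes were higher in I/R rats with no overlap between the groups. Of all genes tested 25.5% were called higher, and 37.2% had every I/R rat above every sham rat. The Timm median log2 fold change was 1.59 on the deposited scale and turned to -0.96 when centred on cardiomyocyte markers. The 6 genes of the TIM23 complex had a median of 1.92. Timm23, the subunit after which the complex is named, had 7.31, 6.37 and 5.82 FPKM in sham rats and 61.0, 25.5 and 23.8 FPKM in I/R rats. Sham rats lay close together, and I/R replicate 1 was far above the other I/R rats. The means were 6.50 ± 0.753 and 36.8 ± 21.0 FPKM (SD, n = 3 each), the log2 fold change was 2.35 (SE 0.35, limma adjusted p = 0.0031), and 1.73% of all genes tested had a larger one. By mean FPKM, Timm23 moved from place 18 of the 29 members in sham rats to place 9 in I/R rats.

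Timm17a and Timm17b encode alternative partners of Timm23 in the translocase. Timm17a had 18.1, 10.8 and 8.47 FPKM in sham rats and 66.2, 42.1 and 33.6 FPKM in I/R rats (log2 fold change 1.93, SE 0.34, limma adjusted p = 0.0045). Timm17b had 3.40, 3.20 and 2.23 FPKM in sham rats and 6.78, 5.24 and 5.56 FPKM in I/R rats (log2 fold change 0.98, SE 0.24, limma adjusted p = 0.014). Timm17a was the higher of the pair in every rat, and the call of Timm17b was lost without sham replicate 3 (limma adjusted p = 0.062).

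Timm50, the receptor that takes up presequences from the TOM complex, had 13.6, 6.51 and 6.46 FPKM in sham rats and 53.5, 27.5 and 20.9 FPKM in I/R rats (log2 fold change 1.90, SE 0.40, limma adjusted p = 0.0078). Timm21, which links the translocase to the TOM complex and to respiratory chain assembly, had 8.25, 5.08 and 4.89 FPKM in sham rats and 36.1, 21.5 and 18.0 FPKM in I/R rats (log2 fold change 2.01, SE 0.32, limma adjusted p = 0.0035). Timm44 anchors the import motor on the matrix side. It had 11.7, 8.09 and 6.08 FPKM in sham rats and 36.4, 21.3 and 17.0 FPKM in I/R rats (log2 fold change 1.49, SE 0.34, limma adjusted p = 0.010). In each of these genes replicate 1 was the highest rat of its group. Timm22, the channel for carrier proteins, had the smallest change of the family, with 1.67, 1.99 and 2.09 FPKM in sham rats and 4.18, 2.98 and 3.79 FPKM in I/R rats (log2 fold change 0.89, SE 0.23, limma adjusted p = 0.016). Its call was lost without I/R replicate 3 (limma adjusted p = 0.052) and without replicate 1 of both groups (0.062).

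The small TIM chaperones escort hydrophobic proteins across the space between the membranes. Timm9 and Timm10 act together in a single ring-shaped complex. Timm10 had 26.9, 10.4 and 10.5 FPKM in sham rats and 86.0, 56.5 and 57.0 FPKM in I/R rats (log2 fold change 2.18, SE 0.38, limma adjusted p = 0.0043). Timm9 was lower and less changed, with 3.86, 4.36 and 5.65 FPKM in sham rats and 12.0, 7.54 and 9.11 FPKM in I/R rats (log2 fold change 1.02, SE 0.26, limma adjusted p = 0.015). Sham replicate 1 was the highest sham rat for Timm10 and the lowest for Timm9, and the call of Timm9 was lost without sham replicate 2 (limma adjusted p = 0.053). Timm10b, a relative of Timm10 that joins the TIM22 complex, had 11.2, 6.57 and 5.81 FPKM in sham rats and 19.6, 13.9 and 16.7 FPKM in I/R rats (log2 fold change 1.13). Timm8a1, whose human counterpart is altered in a deafness and dystonia syndrome, had 11.4, 6.28 and 5.87 FPKM in sham rats and 23.8, 23.3 and 18.0 FPKM in I/R rats (log2 fold change 1.51). Both were called higher, and sham replicate 1 was the highest sham rat in each. The call of Timm10b was lost without sham replicate 2 or sham replicate 3 (limma adjusted p = 0.065 each). Timm8b had 141, 66.6 and 60.2 FPKM in sham rats and 291, 256 and 239 FPKM in I/R rats (log2 fold change 1.66, SE 0.33, limma adjusted p = 0.0066). Timm8b was the most abundant Timm mRNA, with a mean of 89.1 ± 44.7 FPKM in sham rats and 262 ± 26.9 FPKM in I/R rats (SD, n = 3 each).

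Of the 7 tested Chchd genes, 6 were higher in I/R rats, against 25.5% of all genes tested. Their median log2 fold change was 1.44, which turned to -1.10 when centred on cardiomyocyte markers. Chchd10, which encodes a small protein between the membranes known for its link to inherited motor neuron and muscle disease, had the largest change of all members. Its FPKM was 137, 37.3 and 26.4 in sham rats and 731, 443 and 399 in I/R rats. Sham replicate 1 stood far above the other sham rats and still far below every I/R rat. The means were 66.8 ± 60.7 and 525 ± 180 FPKM (SD, n = 3 each), a ratio of 7.85, with a log2 fold change of 3.30 (SE 0.54, limma adjusted p = 0.0037). Without sham replicate 1 the log2 fold change was 4.01 (limma adjusted p = 0.000345). Of all genes tested, 0.347% had a larger log2 fold change than 3.30. Chchd10 stayed above 0 when centred on cardiomyocyte markers, as the only member, with a log2 fold change of 0.76 that missed the threshold (limma adjusted p = 0.13).

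Chchd2, the close paralog of Chchd10 and its partner in a complex, had a summed FPKM of 180, 81.6 and 81.4 in sham rats and 388, 309 and 282 in I/R rats. The groups did not overlap, and the log2 fold change was 1.61 (SE 0.34, limma adjusted p = 0.0079). By mean FPKM, Chchd2 was the most abundant member in sham rats and Chchd10 in I/R rats. Chchd3, a MICOS subunit that shapes the cristae, had 47.9, 31.5 and 29.7 FPKM in sham rats and 139, 88.2 and 74.0 FPKM in I/R rats (log2 fold change 1.44, SE 0.30, limma adjusted p = 0.0080).

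Chchd4 encodes the oxidoreductase of the disulfide relay. It was low, with 0.805, 0.595 and 0.694 FPKM in sham rats and 4.47, 2.82 and 1.11 FPKM in I/R rats (log2 fold change 1.67, SE 0.43, limma adjusted p = 0.017). The I/R rats differed widely, and the lowest still lay above all sham rats. The call was lost without I/R replicate 1 (log2 fold change 1.24, limma adjusted p = 0.051), without sham replicate 2 (0.066) and with no filter on low values (0.060). Chchd1, a protein of the small subunit of the mitochondrial ribosome, had 43.6, 31.2 and 36.6 FPKM in sham rats and 93.3, 91.7 and 71.4 FPKM in I/R rats (log2 fold change 1.20, SE 0.24, limma adjusted p = 0.0067). Chchd7, another small protein of the twin-cysteine type, had 20.5, 10.1 and 12.6 FPKM in sham rats and 33.4, 42.4 and 28.5 FPKM in I/R rats (log2 fold change 1.31, SE 0.30, limma adjusted p = 0.010). For these 3 genes the groups did not overlap. Chchd5 had 1.10, 1.77 and 1.26 FPKM in sham rats and 1.76, 1.74 and 2.28 FPKM in I/R rats, and the groups overlapped (log2 fold change 0.47, SE 0.26, limma adjusted p = 0.18).

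**Figure D2:**
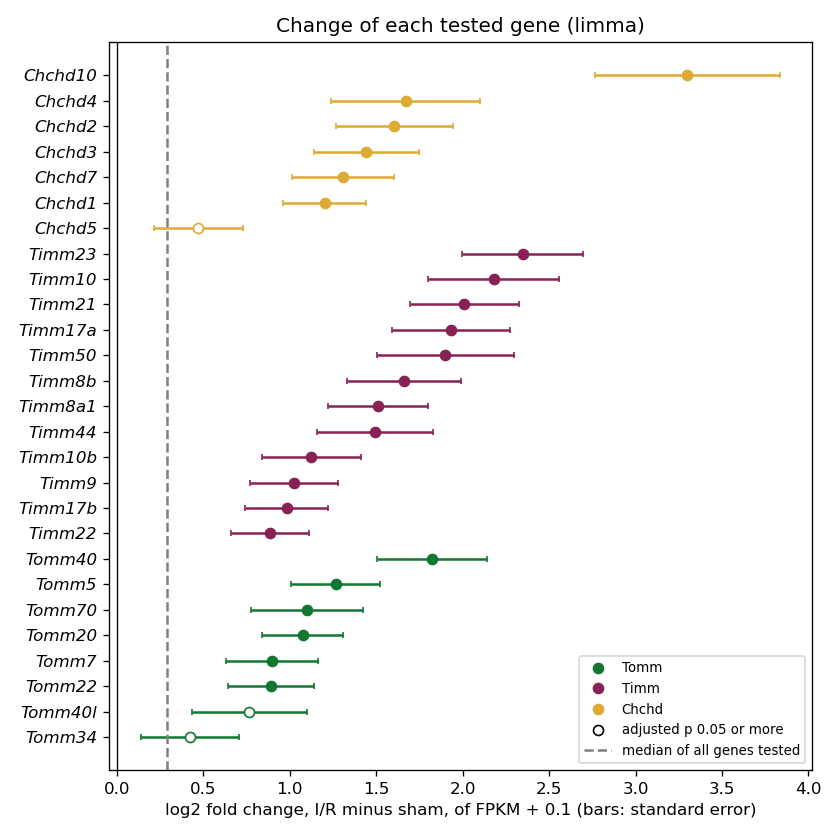
Log2 fold change of FPKM + 0.1 (I/R minus sham, n = 3 rats each) of each tested gene with its limma standard error, by family, with open markers for the 3 genes at an adjusted p of 0.05 or more and a dashed line at the all-gene median of 0.29. All 27 points lie to the right of that line, from 0.42 for Tomm34 to 3.30 for Chchd10. Centred on cardiomyocyte markers, 26 of the 27 values turn below 0, and 84.2% of all genes are called lower.

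The families were contrasted within each library, where the scaling cancels. The mean log2(FPKM + 0.1) of the 12 Timm genes minus that of the 8 Tomm genes was 0.72, 0.29 and 0.31 in sham rats and 1.06, 0.99 and 0.95 in I/R rats. All I/R rats were above all sham rats, and the mean difference between groups was 0.56. For the 7 Chchd genes minus the Tomm genes, the values were 1.60, 1.06 and 1.16 in sham rats and 1.76, 1.99 and 1.69 in I/R rats, a mean difference of 0.54 without overlap. For both contrasts sham replicate 1 lay nearest to the I/R rats. The Tomm genes include the cytosolic Tomm34. Their mean level was 1.03 higher in I/R rats, against 1.18 for the 6 genes of the TOM complex, so both contrasts depend on which Tomm genes are taken. Under quantile normalization the Chchd median log2 fold change (0.50) was close to the Tomm median (0.41). These are descriptions over members chosen by symbol, with no test.

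Pairs of members that share a complex or a close relation were compared as log2 ratios of FPKM + 0.1 in each rat. Of 11 pairs listed, 8 had both genes above the filter, and 5 of these had no overlap between the groups. With 3 rats against 3, the two-sided exact permutation test cannot give a p under 0.1, and 0 of the 8 pairs passed 0.05. The ratio of Tomm40 to its paralog Tomm40l was 2.05 ± 0.56 in sham rats and 3.11 ± 0.28 in I/R rats (SD, n = 3 each, exact permutation p = 0.1, 0.16 adjusted over the 8 pairs). The ratio of Timm17a to Timm17b was 2.38, 1.72 and 1.88 in sham rats and 3.27, 2.98 and 2.58 in I/R rats, with the same p-values. So were the p-values for Timm10 against Timm10b, with a ratio of 0.92 ± 0.31 in sham rats and 1.97 ± 0.19 in I/R rats (n = 3 each, exact test).

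For Chchd2 against Chchd10 the sign changed. The log2 ratio was 0.40, 1.13 and 1.62 in sham rats, where Chchd2 was the higher of the pair in each, and -0.91, -0.52 and -0.50 in I/R rats, where Chchd10 was higher in each (exact permutation p = 0.1, adjusted 0.16). Across the membranes, Tomm20 against Timm23 was 1.09, 1.17 and 0.96 in sham rats and -0.87, 0.22 and 0.06 in I/R rats. The groups did not overlap, and only I/R replicate 1 was below 0 (exact permutation p = 0.1, adjusted 0.16).

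The other 3 pairs overlapped between the groups. Timm9 against Timm10 had a log2 ratio of -2.77 in sham replicate 1, among the I/R rats (-2.83, -2.89 and -2.63), and of -1.24 and -0.88 in the other sham rats (exact permutation p = 0.2, adjusted 0.27). Timm8a1 against Timm8b was -3.44 ± 0.15 in sham rats and -3.59 ± 0.14 in I/R rats (SD, n = 3 each, exact permutation p = 0.3, adjusted 0.34). The ratio of the receptors Tomm20 and Tomm70 was 2.75 ± 0.71 in sham rats and 2.72 ± 0.27 in I/R rats (SD, n = 3 each, exact permutation p = 1).

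**Figure D3:**
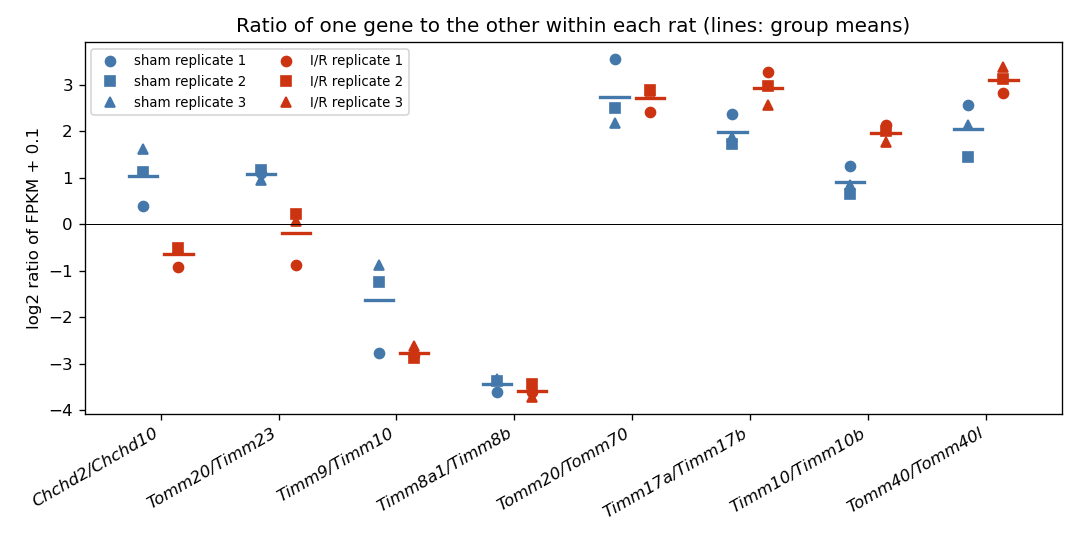
Log2 ratio of FPKM + 0.1 within each library for the 8 pairs of members, 1 point for each rat, with the groups in 2 colors. The groups are apart for 5 pairs, and Chchd2 against Chchd10 changes sign, from between 0.40 and 1.62 in sham rats to between -0.91 and -0.50 in I/R rats.

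Other genes that work with the members were described from lists by the calls of the same limma fit. Their changes too, and those of the larger lists below, are on the deposited scale, where 25.5% of all genes tested were called higher and 7.36% lower. In the presequence motor, which pulls proteins into the matrix, 6 of 7 genes were higher and 0 lower, with a median log2 fold change of 1.53. Grpel1, the nucleotide exchange factor of the motor chaperone, had 2.06 (SE 0.34, limma adjusted p = 0.0040), and its paralog Grpel2 had -0.10 (limma adjusted p = 0.86). Dnajc15 and Pam16 had 1.74 and 1.23. In the sorting and assembly machinery, which inserts barrel proteins into the outer membrane, 2 of 4 were higher, with Samm50 at 1.49 and Mtx2 at 1.32, while Mtx1 at 1.07 and Mtx3 at -0.31 had no call.

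Of the 5 tested processing peptidases, which cut off presequences, 4 were higher (median 1.24), with Pmpcb at 1.80 and Mipep at 1.69 (Immp1l 0.86, Immp2l 0.89 without a call). Of 5 membrane insertion genes, 4 were higher (median 1.35), with Romo1 at 1.85, Mtch2 at 1.49 and Mtch1 at 1.11, and Agk at 0.97 had no call. The partners of Chchd4 in the disulfide relay differed in value. Aifm1, which docks CHCHD4, was higher (1.55, SE 0.34, limma adjusted p = 0.0087), and Gfer, which reoxidizes it, had 0.16 (SE 0.22, limma adjusted p = 0.62), with 3.50, 2.94 and 3.20 FPKM in sham rats and 4.34, 3.14 and 3.37 FPKM in I/R rats.

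Among 9 other twin CX9C genes, typical substrates of that relay, 8 were higher (median 1.56), with Cox6b1 at 2.01, Ndufa8 at 1.75 and Cox19 at 0.89, and Coa4 at 0.07 had no call. All 4 other MICOS genes were higher (median 1.38), namely Apoo at 1.72, Immt at 1.43, Micos13 at 1.33 and Micos10 at 1.15. Of 6 mitochondrial proteases, 4 were higher (median 1.28), with Clpp at 2.04 and Lonp1 at 1.44, while Afg3l2 at 0.95 and Yme1l1 at -0.13 had no call. Yme1l1 is a protease of the inner membrane, and its groups overlapped.

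Larger mitochondrial lists moved by similar amounts. Of 75 nuclear subunits of oxidative phosphorylation, 64 were higher and 0 lower (median 1.59), and of 69 mitochondrial ribosomal proteins 63 were higher and 0 lower (median 1.36). The mean log2 level of the members minus that of the nuclear subunits was -3.56, -2.94 and -2.93 in sham rats and -3.21, -3.37 and -3.46 in I/R rats, and these overlapped. Minus the ribosomal proteins, it was -0.12, 0.11 and 0.08 in sham rats and 0.10, 0.13 and 0.03 in I/R rats, which overlapped too. Against the cardiomyocyte markers it was -6.97, -5.92 and -5.72 in sham rats and -7.30, -7.30 and -7.39 in I/R rats. On that ratio all I/R rats lay below all sham rats, by 1.13 on average. The 13 mRNAs of mitochondrial DNA had a median log2 fold change of -0.52, with 2 called lower, Mt-nd3 at -1.03 and Mt-nd6.

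Of the markers of other cells, 3 of 5 tested neutrophil and monocyte markers were higher (median 1.60, summed 51.5 to 67.2 FPKM in sham and 78.5 to 144 FPKM in I/R rats) and 2 of 7 fibroblast markers (median 0.57, summed 420 to 581 and 605 to 669 FPKM). Among all genes tested 25.5% were called higher, and the share of the fibroblast markers was near that. Of 6 endothelial markers 0 had a call in limma (median 0.01, summed 121 to 173 and 139 to 176 FPKM, 1 higher and 1 lower at an unadjusted p under 0.05), and of 2 red blood cell markers 0 (median -0.01, summed 1062 to 1154 and 584 to 1674 FPKM, 0 at an unadjusted p under 0.05). The cardiomyocyte markers had a median of 2.55, above that of every family of members. The part of these cells in the members' difference was not tested.

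**Figure D4:**
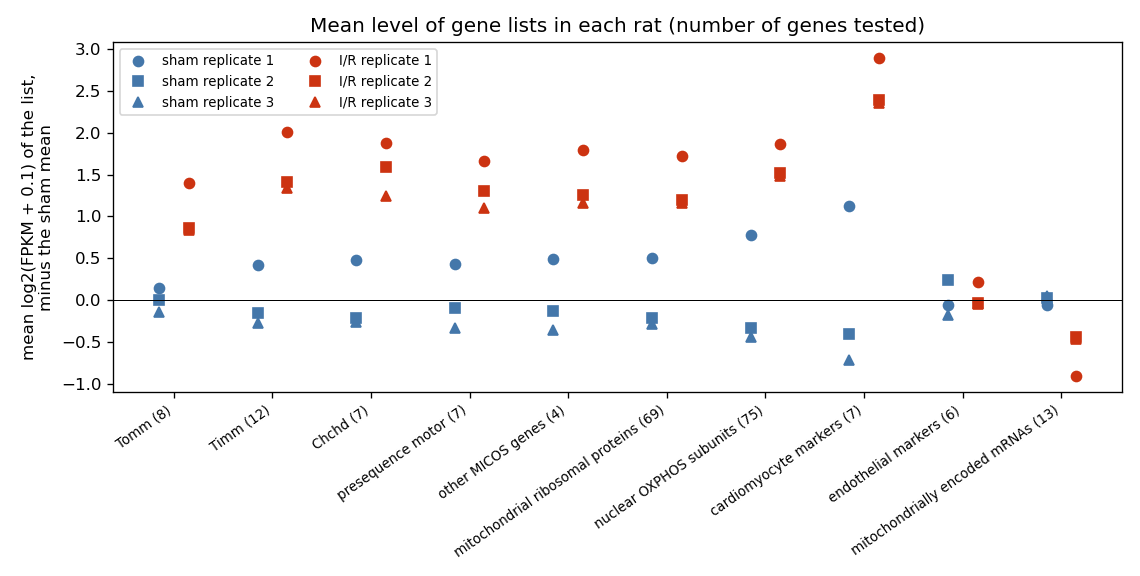
Mean log2(FPKM + 0.1) of each gene list in each rat, on the deposited scale and set against the sham mean of that list, with the number of genes in parentheses. The Tomm, Timm and Chchd means are 1.03, 1.59 and 1.57 higher in I/R rats, beside 1.62 for the nuclear oxidative phosphorylation subunits, 1.36 for the ribosomal proteins and 2.54 for the cardiomyocyte markers, and the first 3 turn lower against those markers.

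How far the members stood above sham depended on what the libraries were scaled to, since FPKM are shares of a library. Rescaled over the genes other than mitochondrial mRNAs, the median of all genes moved from 0.29 to -0.46, and 10 of the 27 members were called higher against 7.25% of all genes. These were Chchd10 (2.52), Timm23 (1.57), Timm10 (1.40), Timm21 (1.23), Timm17a (1.15), Timm50 (1.12), Tomm40 (1.05), Timm8b (0.88), Chchd2 (0.82) and Timm8a1 (0.73). Tomm34 (-0.31) and Chchd5 (-0.27) were below 0 there, without a call. All 27 were above the median of all genes, which a single factor for each library could hardly change. Of the calls in all genes, 77.6% were higher on the deposited scale and 21.7% after this rescaling.

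With quantile normalization 11 members were higher against 13.2% of all genes, and 48.0% of all calls were higher. There 26 of the 27 members were above the all-gene median of -0.022, and Tomm7 at -0.041 was below it. Centred on the cardiomyocyte markers, 0 members were higher against 0.228% of all genes, and 14 were lower against 84.2% of all genes. The all-gene median was then -2.25, and 0.271% of all calls were higher. All 27 members were above that median, which subtracting the same amount from every gene of a library cannot change. Among the genes with a mean of at least 5 FPKM, 20 of 20 members were higher against 50% of such genes, and 91.9% of all calls were higher. Rescaled to TPM, 24 members were higher against 31.5% of all genes, and 87.3% of all calls were higher. Centred on the median, 23 members were higher against 18.5% of all genes, and 56.5% of all calls were higher. By quantiles the Timm median exceeded the Tomm median, with 0.86 against 0.41. The Chchd median was 0.50 there, close to that of Tomm, whereas the deposited scale gave 1.44 against 0.99. The other scalings shift all genes of a library by about the same amount, so they could hardly change the order of the families. Their Timm and Tomm medians were 0.80 against 0.20 over genes other than mitochondrial mRNAs and -0.96 against -1.56 on cardiomyocyte markers.

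**Figure D5:**
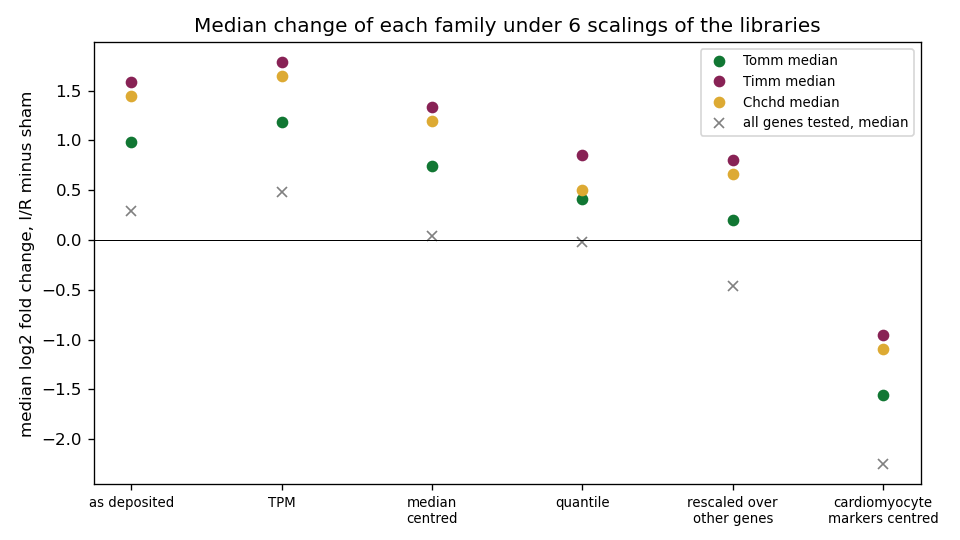
Median log2 fold change (I/R minus sham) of the tested Tomm, Timm and Chchd genes and of all genes tested under 6 scalings of the same FPKM. The medians turn from above 0 as deposited (0.99, 1.59 and 1.44) to below 0 when centred on cardiomyocyte markers (-1.56, -0.96 and -1.10). The family medians lie above the median of all genes in each scaling, an order that only quantile normalization could have altered appreciably.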

How the data were processed

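RNA from the myocardium of 3 sham and 3 I/R rats was sequenced from stranded total RNA libraries. The authors deposited 1 table of FPKM values for each gene and sample. The submitters' processing notes name STAR and HTSeq, and the genome build, the annotation and the total used for scaling are not given in the sources used here. The 30452 rows, 7092 of them without a symbol, were summed by symbol to 28293 genes, including 2 rows of Chchd2. All 6 columns were matched to samples by name. FPKM carry no counts, so the absolute depth is unknown.

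Groups were compared in limma 3.58.1 under R 4.3.3 (eBayes, trend by intensity) on log2(FPKM + 0.1) in 10942 genes with a mean of at least 0.5 FPKM, with Benjamini-Hochberg adjustment over all of them and calls at an adjusted p under 0.05. Fold changes on this scale understate the change of low genes. Ratios of pairs were tested by exact permutation, two-sided (scipy 1.17.1). The fit was tested on simulated data. Promoters, their letters and coordinates are from RefSeq (GRCr8). The members and lists were chosen with earlier results of these data known. Values in each rat were given for the core subunits and for the 3 highest and 3 lowest log2 fold changes of each family, and Tomm7, Timm10b, Timm8a1 and Timm8b were added after their values were seen. Of the import lists up to 2 highest and 2 lowest are named, and the larger lists and cell markers are given by counts. Nothing in the sources ties a sham rat to an I/R rat, but the deviations of samples with the same replicate number correlated at 0.20, 0.12 and 0.12, although sham replicate 3 correlated best with I/R replicate 2. A blocked fit was therefore run beside the unblocked one. Other alternatives were other pseudocounts, filters and scalings, and leaving out each rat. Leaving out replicate 1 of both groups was chosen after seeing the data.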

Additional observations from a re-analysis of the deposited data

How the results depend on the processing

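The members' direction held under other pseudocounts, filters, TPM, median centring and every omission of a rat. The exceptions under other scalings follow, and the cause was not tested. With the replicate block 24 members were higher, against 3085 of 10942 genes, and the block changed no call of a member. Members higher numbered 11 under quantile normalization, against 13.2% of all genes, and 10 over genes other than mitochondrial mRNAs, against 7.25%. Centred on cardiomyocyte markers, 0 were higher and 14 lower, against 0.228% and 84.2% of all genes. At an adjusted p under 0.01 in limma, 14 members were higher, against 1185 of 10942 genes. Leaving out rats gave 18 (without sham replicate 2) to 23 members higher, 1528 (without sham replicate 3) to 2557 (without sham replicate 1) of all genes higher and 309 (without sham replicate 2) to 881 (without sham replicate 1) lower. Without replicate 1 of both groups, 2638 were higher and 1006 lower. With no filter, 22 of 29 members were higher, against 2198 of 19226 genes, and Chchd6 and Timm8a2 were below 0 without a call.

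All genes higher numbered 2790 as reported, 1441 by quantiles, 793 over genes other than mitochondrial mRNAs, 25 on cardiomyocyte markers and 1185 at 0.01. All genes lower numbered 805 as reported, 166 at a mean of at least 5 FPKM, 504 with TPM, 1554 on the median, 1559 by quantiles, 2857 over genes other than mitochondrial mRNAs, 9214 on cardiomyocyte markers and 211 at 0.01.

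The Tomm median was 0.74 on the median, and the Tomm, Timm and Chchd medians were 0.41, 0.86 and 0.50 by quantiles, 0.20, 0.80 and 0.66 over genes other than mitochondrial mRNAs, and -1.56, -0.96 and -1.10 on cardiomyocyte markers. Leaving out rats gave 0.90 to 1.11, 1.38 to 1.93 and 1.24 to 1.66. Tomm20 against Tomm70, near 0, was 0.19 at a pseudocount of 1 and -0.30 to 0.38 when leaving out rats. Other pairs kept their sign.

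Centred on cardiomyocyte markers, log2 fold changes were -1.34 for Chchd1, -0.94 for Chchd2, -1.10 for Chchd3, -0.87 for Chchd4, -2.07 for Chchd5, -1.24 for Chchd7, -0.37 for Timm10, -1.42 for Timm10b, -0.61 for Timm17a, -1.56 for Timm17b, -0.53 for Timm21, -1.66 for Timm22, -0.20 for Timm23, -1.05 for Timm44, -0.64 for Timm50, -1.03 for Timm8a1, -0.88 for Timm8b, -1.52 for Timm9, -1.47 for Tomm20, -1.65 for Tomm22, -2.12 for Tomm34, -0.72 for Tomm40, -1.78 for Tomm40l, -1.28 for Tomm5, -1.65 for Tomm7 and -1.45 for Tomm70. Chchd5 was -0.27 and Tomm34 -0.31 over genes other than mitochondrial mRNAs, and Tomm7 was -0.0407 by quantiles. Unknown depth limits statements on genes near 1 FPKM, such as Chchd4, Chchd5 and Tomm34.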
